A study of Mus musculus with 60 samples.

Results

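The livers described here came from diet-induced obese (DIO) mice that had received vehicle only. The 5 livers labelled Glp1rWnt1-/- carry a deletion of the GLP-1 receptor gene Glp1r that is named after Wnt1, and the 5 livers labelled Glp1rfl/fl carry the floxed Glp1r allele of the same line with no knockout in their label. These 10 libraries are part of a series of 60, and they were chosen by title from the liver table of the Glp1r line, whose remaining group holds 5 Glp1rfl/fl livers treated with mGIPR-Ab/P1, a conjugate of a peptide and an antibody against GIPR. Genes were tested if at least 5 of the 15 libraries of that table reached 1 FPKM, which left 10858 of 54343 symbols. FPKM scales the fragments of a gene by transcript length and library size, so levels can be set beside those of other genes. The series title is about the dependence of the conjugate on incretin receptors of the brain and spinal cord, and the untreated comparison shows what the liver of the knockout looked like without the conjugate. As another untreated knockout, the series holds 5 GiprSyn-/- and 5 Giprfl/fl vehicle livers from DIO mice, in a table of their own. The labels give neither the promoter of the recombinase nor the age, the sex or any pooling of the mice, and they call the libraries biological replicates without saying more, so each p-value measures the spread between these libraries.

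GLP-1, released by gut endocrine cells after meals, acts through GLP-1R on the pancreas and on brain circuits that curb appetite, and hepatocytes are not known as a site of strong Glp1r expression. Wnt1 marks the embryonic dorsal neural tube and midbrain, and Wnt1-driven recombinases act in the descendants of these cells and of the neural crest, not in hepatocytes. The liver reads signals from the brain in part through the pituitary: pulses of growth hormone act through the receptor GHR, JAK2 and STAT5B to keep male-biased liver genes on and female-biased ones off. Cholesterol synthesis in liver follows another switch, SREBP2, which turns its genes on when sterols are scarce.

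Glp1r itself was too low in liver to check the genotype: its values were 0.0071, 0, 0.0285, 0.0762 and 0.0435 FPKM in Glp1rWnt1-/- livers, against 0.0156, 0.0186, 0.0171, 0.0194 and 0.0237 FPKM in Glp1rfl/fl livers. Wnt1 was listed at 0 in all 10 libraries. Among related receptors, the glucagon receptor gene Gcgr was at 111, 108, 115, 109 and 119 FPKM in Glp1rWnt1-/- livers, against 105, 102, 108, 116 and 109.5 FPKM in Glp1rfl/fl livers, and these groups overlapped. Transcripts of the Y-linked genes Ddx3y, Uty, Kdm5d and Eif2s3y were present in all 10 libraries and Xist stayed at or below 0.0197 FPKM, so the libraries held male RNA. The hepatocyte markers named here, 9 of them in the table, summed to 38763 to 52735 FPKM in Glp1rWnt1-/- livers and 46221 to 62894 FPKM in Glp1rfl/fl livers, and none was at 0. Estimated depth was 48.4 ± 3.5 M fragments in Glp1rWnt1-/- livers and 49.9 ± 3.0 M in Glp1rfl/fl livers (SD, n = 5 each, exact permutation p = 0.5, two-sided). Mitochondrial transcripts took 11.3 ± 1.11% of all FPKM in Glp1rWnt1-/- livers and 12.97 ± 0.81% in Glp1rfl/fl livers (exact permutation p = 0.0397, 0.0992 after adjustment over 5 library measures). Summed FPKM was 641107 ± 7808 in Glp1rWnt1-/- livers and 616857 ± 12124 in Glp1rfl/fl livers (exact permutation p = 0.0238, 0.0992 after that adjustment).

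No gene passed the test. At a Benjamini-Hochberg adjusted p under 0.05, limma called 0 of 10858 genes, a share of 0%, and the smallest adjusted p was 0.0812, shared by 17 genes. At an unadjusted p under 0.05, 240 genes (2.21%) were higher and 808 (7.44%) lower in Glp1rWnt1-/- liver, 9.65% in all. All 5 knockout values lay above all 5 floxed values for 69 genes (0.635%) and below them for 187 genes (1.72%), or 2.36% together. The split depended on the scaling. Unadjusted calls were 518 higher and 504 lower with median-of-ratios scaling and 533 higher and 544 lower with quantile normalization. They were 144 higher and 1643 lower with a common FPKM sum and 826 higher and 238 lower with a common sum that leaves out the Mup family. The words higher and lower below are therefore descriptions of values, read beside these shares. Of 22 genes with an adjusted p under 0.1, 13 were higher and the remaining ones lower. Most genes below were taken by a rule on p-values and lists, but Selenbp2, Mup1, Mup3, Mup7, Mup10, Mup12, Mup14, Mup15, Mup17, Mup18, Cyp2b13, Cyp2a4, Hmgcs1, Sqle, Dhcr7, Insig1, Elovl5, Scd1, Fasn, Srebf1, Plin2, Cpt1a, Cyp3a11, Hamp, Fgf21, Lcn2 and Cyp2c54 were chosen after their values were seen.

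Male-biased liver genes were mostly higher in the knockout, though none passed the test. Of 32 listed genes 30 were tested, 29 had a positive log2 fold change (33% of all genes tested did), and for 12 of 30 (40%) the groups did not overlap on the high side, beside 0.635% of all genes tested. Mup genes, which have a paragraph of their own, were 5 of these 12. The median log2 fold change of the male-biased list was 0.82, against -0.038 over all genes tested, and 29 stayed positive under each of the 4 other scalings. Fewer cells of a type and less RNA per cell cannot be told apart in such bulk samples. Serpina1e, an alpha-1-antitrypsin paralog secreted by male mouse liver, was at 1057, 1172, 617, 1178 and 291 FPKM in Glp1rWnt1-/- livers, against 160.1, 106, 250.8, 85.3 and 53.6 FPKM in Glp1rfl/fl livers. Even the lowest knockout liver, replicate 5, exceeded the highest floxed liver (log2 fold change 2.73 ± 0.47, adjusted p = 0.0812, the error being the model's standard error). Cyp4a12b, a fatty acid omega-hydroxylase, was at 14.1, 14.4, 7.78, 19.5 and 5.81 FPKM in Glp1rWnt1-/- livers, against 1.72, 2.56, 2.15, 1.61 and 0.482 FPKM in Glp1rfl/fl livers. The groups were again apart, with replicate 5 lowest on both sides (log2 fold change 2.25 ± 0.37, adjusted p = 0.0812). C6, a component of the terminal complement complex, was at 71.3, 79.7, 57.8, 110.4 and 51.6 FPKM in Glp1rWnt1-/- livers, against 33.4, 35.5, 49.2, 32.0 and 30.4 FPKM in Glp1rfl/fl livers. The nearest values were the 51.6 FPKM of knockout replicate 5 and the 49.2 FPKM of floxed replicate 3 (log2 fold change 0.99 ± 0.19, adjusted p = 0.0812). C8a and C8b, subunits of the same complex, had log2 fold changes of 0.55 ± 0.15 and 0.85 ± 0.21. The groups were apart for C8a, whereas for C8b knockout replicate 5 lay inside the floxed range.

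**Figure D1:**
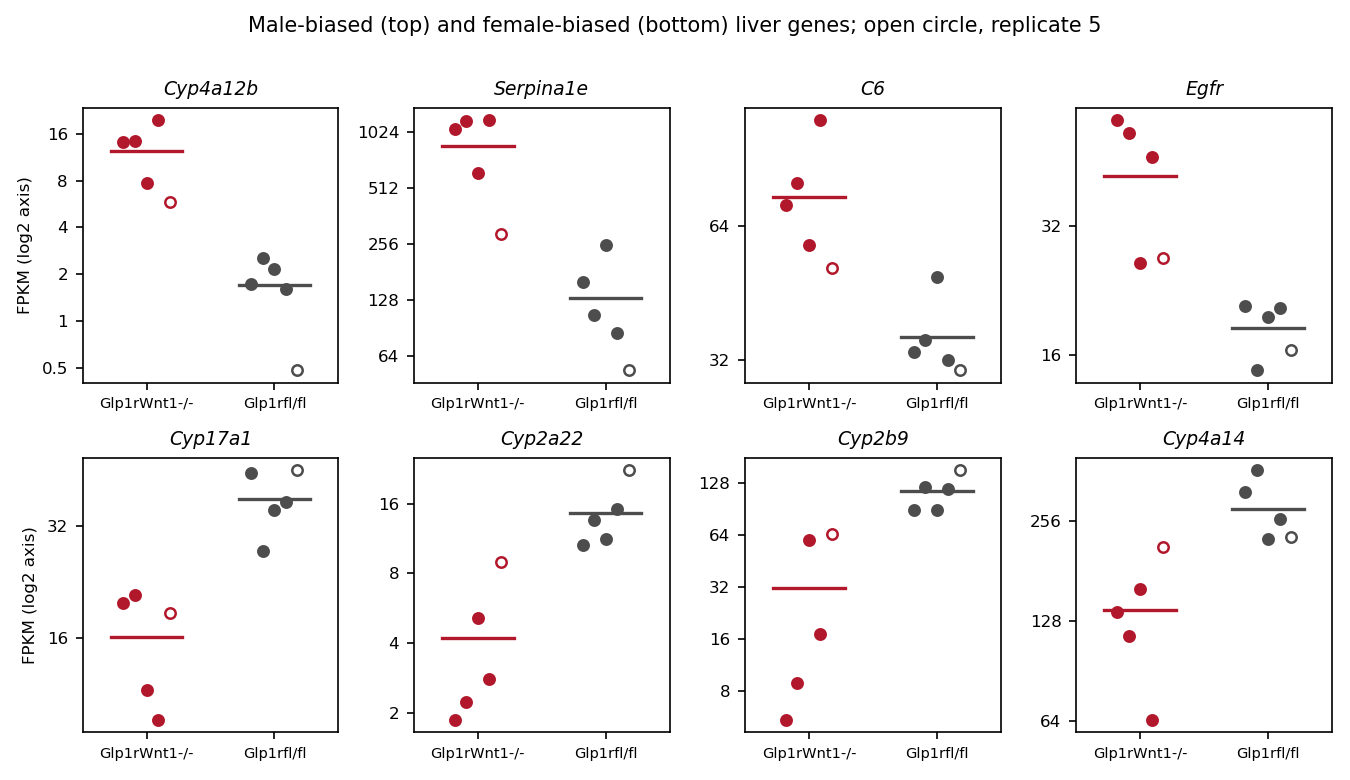
FPKM on a log2 axis of male-biased and female-biased genes in 5 Glp1rWnt1-/- livers (left in each panel) and 5 Glp1rfl/fl livers (right), 1 point per library, with the group mean as a line and replicate 5 as an open circle. Knockout values of Serpina1e, from 291 to 1178 FPKM, all lie above the floxed values, while those of Cyp17a1, from 9.68 to 20.9 FPKM, all lie below.

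Egfr, the receptor of epidermal growth factor, was at 56.2, 52.7, 26.2, 46.3 and 27.0 FPKM in Glp1rWnt1-/- livers, against 20.8, 14.8, 19.7, 20.6 and 16.4 FPKM in Glp1rfl/fl livers. Knockout replicates 3 and 5 lay just above the floxed range and the other knockout livers far above it (log2 fold change 1.07 ± 0.23, adjusted p = 0.137). Cyp7b1, an oxysterol and steroid 7-alpha-hydroxylase of bile acid synthesis, was at 51.8, 52.2, 39.6, 62.3 and 37.1 FPKM in Glp1rWnt1-/- livers, against 27.8, 31.9, 29.4, 31.4 and 27.0 FPKM in Glp1rfl/fl livers, again with no overlap (log2 fold change 0.68 ± 0.15, adjusted p = 0.14). Hsd3b5, a 3-ketosteroid reductase made almost only by male mouse liver, was at 57.9, 36.1, 16.1, 28.3 and 1.48 FPKM in Glp1rWnt1-/- livers, against 1.798, 0.0419, 4.19, 0.277 and 0.0593 FPKM in Glp1rfl/fl livers. Here the groups overlapped, since knockout replicate 5 lay within the floxed values, while the other knockout livers lay above all of them (log2 fold change 3.40 ± 0.77, adjusted p = 0.14). Slco1a1, a sinusoidal uptake carrier of bile acids and steroid conjugates, showed the same picture with 72.5, 80.6, 62.5, 86.4 and 27.0 FPKM in Glp1rWnt1-/- livers, against 29.8, 14.6, 34.0, 13.7 and 2.55 FPKM in Glp1rfl/fl livers (log2 fold change 2.01 ± 0.50, adjusted p = 0.168). Selenbp2, a selenium-binding protein gene, averaged 109 ± 111 FPKM in Glp1rWnt1-/- livers and 12.8 ± 5.42 FPKM in Glp1rfl/fl livers (SD, n = 5 each, log2 fold change 2.56 ± 0.62, adjusted p = 0.16). The 1 gene of the list with a negative log2 fold change was Hao2, a peroxisomal hydroxyacid oxidase, at 0.294, 0.0627, 0.532, 0.240 and 0.886 FPKM in Glp1rWnt1-/- livers, against 2.27, 2.84, 1.65, 3.54 and 4.999 FPKM in Glp1rfl/fl livers. Male libraries alone cannot show the sex bias of a gene, so the place of Hao2 in the list was not tested. Every knockout value of Hao2 lay below every floxed one (log2 fold change -1.50 ± 0.26, adjusted p = 0.0812).

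The major urinary proteins, pheromone carriers that male mouse liver secretes in bulk, took a larger share of the library in the knockout. Together the Mup genes took 13.5, 14.1, 14.5, 18.6 and 6.81% of all FPKM in Glp1rWnt1-/- livers, against 5.03, 4.39, 5.73, 4.84 and 3.59% in Glp1rfl/fl livers. All 5 knockout livers exceeded all floxed livers, and knockout replicate 5 came closest to them. Of 19 Mup genes tested, 19 had a positive log2 fold change with an unadjusted p under 0.05, beside 2.21% of all genes tested. For 15 of them the groups did not overlap, beside 0.635% of all genes tested, and the median log2 fold change was 2.37. Mup genes are near-identical copies, so their shared fragments were divided among them by estimation and the level of a single member is uncertain; the sum is firmer. The genes also differed in how far apart their groups lay. Mup9 was at 643, 742, 1139.8, 2477 and 151 FPKM in Glp1rWnt1-/- livers, against 76.8, 55.3, 96.6, 68.1 and 52.2 FPKM in Glp1rfl/fl livers (log2 fold change 3.40 ± 0.67, adjusted p = 0.0812). Mup19, one of the most abundant, was at 10767, 9827, 11635, 16621 and 2656 FPKM in Glp1rWnt1-/- livers, against 1514, 1000.0, 1966, 1142 and 683 FPKM in Glp1rfl/fl livers (log2 fold change 2.90 ± 0.51, adjusted p = 0.0812). Mup3, at the small end of the family, was at 10422, 9964, 10770.2, 9457 and 6111 FPKM in Glp1rWnt1-/- livers, against 7588, 4599, 7132, 5459.8 and 4083 FPKM in Glp1rfl/fl livers (log2 fold change 0.71 ± 0.19, adjusted p = 0.198). Its groups overlapped, because knockout replicate 5 stood at 6111 FPKM, inside the floxed range.

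**Figure D2:**
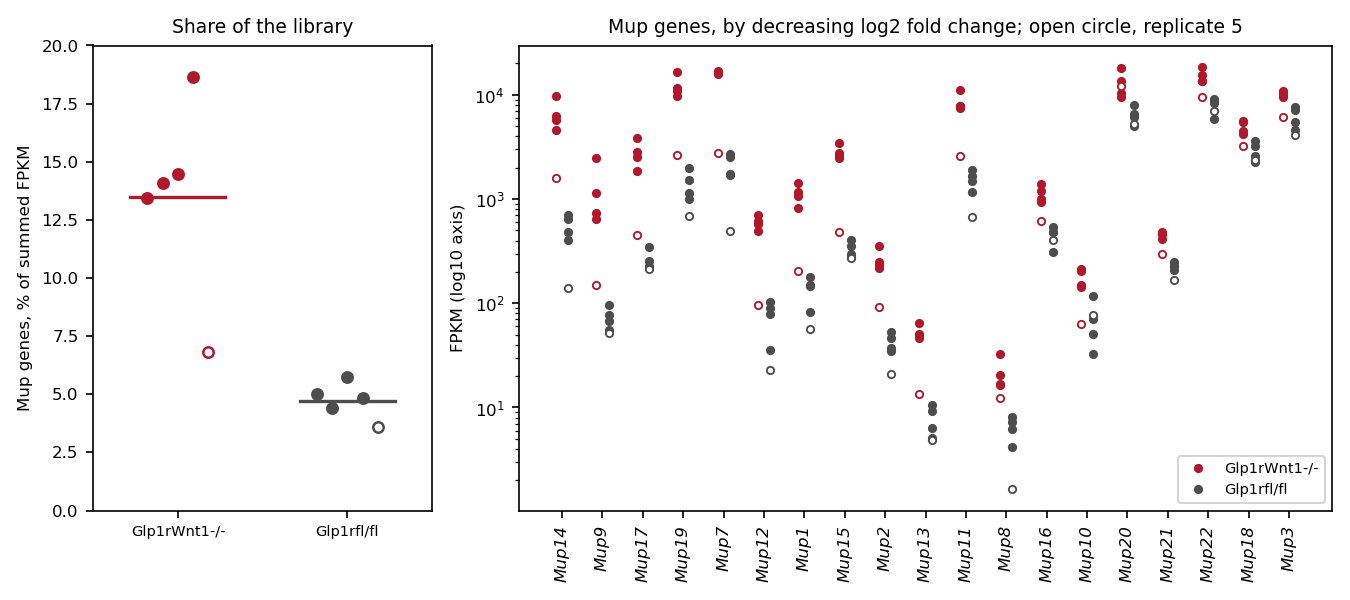
Left, summed FPKM of all Mup genes as a percentage of the summed FPKM of the library, in 5 Glp1rWnt1-/- livers and 5 Glp1rfl/fl livers with the group mean as a line. Right, FPKM on a log10 axis of the 19 Mup genes tested, ordered by decreasing log2 fold change from 3.52 (Mup14) to 0.71 (Mup3), with knockout libraries left of floxed ones and replicate 5 as an open circle.

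Since the Mup genes were all higher but by unequal amounts, their proximal promoters are shown for some members with larger and some with smaller fold changes. The stretch runs from the sequence GACCCATA to the TATATAA box and was found within 250 bases upstream of the start in 11 of 14 Mup promoters of RefSeq (build GRCm38.p6, chromosome 4, minus strand for those printed). It was not found in the windows of Mup14, the member with the highest log2 fold change (3.52), Mup7 (2.85) and Mup11 (2.36). Letters run 5′ to 3′ and capitals mark the TATATAA box.
Mup9, chr4:60421977-60422061: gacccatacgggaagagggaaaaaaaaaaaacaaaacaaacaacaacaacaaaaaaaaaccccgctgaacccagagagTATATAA
Mup17, chr4:61595851-61595933: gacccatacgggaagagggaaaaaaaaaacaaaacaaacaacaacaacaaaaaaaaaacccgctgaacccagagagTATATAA
Mup19, chr4:61782249-61782329: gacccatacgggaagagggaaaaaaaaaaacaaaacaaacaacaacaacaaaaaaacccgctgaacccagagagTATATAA
Mup18, chr4:61674116-61674191: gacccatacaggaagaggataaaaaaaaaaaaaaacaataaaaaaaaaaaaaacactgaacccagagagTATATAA
Mup3, chr4:62087322-62087370: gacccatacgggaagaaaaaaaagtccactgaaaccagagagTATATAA
Mup21, chr4:62150843-62150888: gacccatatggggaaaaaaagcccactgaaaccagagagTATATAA
The stretch had 85, 83 and 81 bases in Mup9, Mup17 and Mup19, whose log2 fold changes were 3.40, 2.91 and 2.90, with 6 CAA triplets between the flanks in each. It had 49 bases and no CAA in Mup3 (0.71), 46 bases and no CAA in Mup21 (0.95), and 76 bases with 1 CAA in Mup18 (0.72). Mup10, with 84 bases and 9 CAA triplets, had a log2 fold change of 1.14, and Mup2, with the longest stretch at 86 bases and 7 CAA triplets, had one of 2.49, so neither feature ordered the genes. These promoters were picked after the values were seen, the copies are related by descent, and the letters are a description with no test.

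Female-biased genes showed the opposite sign throughout. Of 30 listed genes 17 were tested, and all 17 were negative under the main and the 4 other scalings. An unadjusted p under 0.05 was reached by 11, beside 7.44% of all genes tested on the low side. The groups did not overlap on the low side for 5 of 17 (29.4%), beside 1.72% of all genes tested. Their median log2 fold change was -0.87. Cyp17a1, a steroid 17-alpha-hydroxylase, was at 19.95, 20.9, 11.7, 9.68 and 18.7 FPKM in Glp1rWnt1-/- livers, against 44.4, 27.4, 35.3, 37.1 and 45.2 FPKM in Glp1rfl/fl livers. The highest knockout liver stayed below the lowest floxed liver (log2 fold change -1.22 ± 0.23, adjusted p = 0.0812). Cyp2b9, a cytochrome P450 typical of female mouse liver, was at 5.45, 8.89, 60.3, 17.1 and 65.3 FPKM in Glp1rWnt1-/- livers, against 89.6, 122, 89.3, 119 and 152 FPKM in Glp1rfl/fl livers. Knockout replicates 3 and 5 came near the floxed livers, and the other knockout livers were far below them (log2 fold change -2.39 ± 0.53, adjusted p = 0.14). Cyp2a22, another P450, was at 1.86, 2.23, 5.11, 2.79 and 8.98 FPKM in Glp1rWnt1-/- livers, against 10.6, 13.6, 11.2, 15.2 and 22.4 FPKM in Glp1rfl/fl livers (log2 fold change -1.70 ± 0.34, adjusted p = 0.0913). Its highest knockout value was that of replicate 5, still under the lowest floxed value. Cyp4a14, a fatty acid omega-hydroxylase induced by PPAR-alpha and higher in females, was at 136, 115, 159, 64.3 and 213 FPKM in Glp1rWnt1-/- livers, against 313, 364, 225, 259 and 229 FPKM in Glp1rfl/fl livers (log2 fold change -1.09 ± 0.26, adjusted p = 0.147). Knockout replicate 4 was lowest and replicate 5 highest, with the floxed minimum at 225 FPKM. Cyp2b13 and Cyp2a4, both steroid-metabolizing P450s, had log2 fold changes of -1.72 ± 0.49 and -2.04 ± 0.57, and only Cyp2b13 of this pair had groups that did not overlap.

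Members of the growth hormone axis lay on both sides of 0, and none passed the test. Of 19 tested members 12 were positive, where 33% of all genes tested were, and 10 to 16 were under the other scalings. Of the 19, 0 had groups that did not overlap, 1 had an unadjusted p under 0.05 (on the low side), and the median log2 fold change was 0.055. Igf1, the secreted mediator of growth hormone, was at 253, 234, 212, 205 and 241 FPKM in Glp1rWnt1-/- livers, against 226, 179.7, 227, 202 and 188 FPKM in Glp1rfl/fl livers (log2 fold change 0.16 ± 0.089, adjusted p = 0.582). Those groups overlapped, as did those of the STAT5-induced feedback inhibitor Socs2, at 18.2, 11.4, 8.12, 7.33 and 7.11 FPKM in Glp1rWnt1-/- livers, against 7.37, 1.63, 9.29, 9.80 and 4.64 FPKM in Glp1rfl/fl livers (log2 fold change 0.68 ± 0.40, adjusted p = 0.617). Onecut1, a hepatic transcription factor that growth hormone raises in rat liver, averaged 13.9 ± 11.4 FPKM in Glp1rWnt1-/- livers and 5.62 ± 3.80 FPKM in Glp1rfl/fl livers (SD, n = 5 each), a difference smaller than the SD of the knockout livers. Igfbp1, an insulin-repressed binding protein of IGF1, was at 16.7, 14.05, 6.65, 6.60 and 11.1 FPKM in Glp1rWnt1-/- livers, against 14.7, 24.4, 11.1, 20.03 and 14.5 FPKM in Glp1rfl/fl livers (log2 fold change -0.61 ± 0.28, adjusted p = 0.498), and was the member with the unadjusted p under 0.05. The STAT5 motif TTCNNNGAA, searched on both strands within 250 bases upstream of the start, was present in 3 of 22 male-biased promoters held by RefSeq (13.6%), in 0 of 12 female-biased ones and in 497 of 8435 promoters of genes tested (5.89%). The 3 genes were Keg1, C8a and Nox4. The C8a window, on the minus strand of GRCm38.p6, is shown as the one that belongs to a gene with separate groups, with the motif in capitals.
C8a, chr4:104876588-104876648: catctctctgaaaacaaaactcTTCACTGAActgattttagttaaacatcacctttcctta

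Knockout replicate 5 stood apart in both sex-biased lists. Over the male-biased genes, the median deviation from the floxed mean was 0.91, 0.79, 0.65, 1.21 and 0.40 on the log2 scale in Glp1rWnt1-/- livers, against 0.11, -0.080, 0.31, 0.0068 and -0.28 in Glp1rfl/fl livers. Over the female-biased genes it was -1.003, -0.69, -0.77, -1.28 and -0.17 in Glp1rWnt1-/- livers, against -0.18, 0.071, -0.078, -0.0079 and 0.27 in Glp1rfl/fl livers. Floxed replicate 5 was shifted the same way within its group, lowest over the male-biased and highest over the female-biased genes. Whether the libraries numbered 5 share a factor was not tested. Replicate 5 was the knockout library nearest to the floxed mean for 21 of 30 male-biased, 11 of 17 female-biased and 18 of 19 Mup genes, and for 2725 of all 10858 genes. It also held the highest sum of erythrocyte markers, 3137 FPKM, with the other knockout livers at 639 to 1478 and floxed livers at 1016 to 1523 FPKM. Its B cell markers summed to 25.6 FPKM, with the other knockout livers at 4.08 to 8.69 and floxed livers at 7.53 to 12.3 FPKM. Its MHC class II genes summed to 238 FPKM, with the other knockout livers at 45.9 to 206 and floxed livers at 78.6 to 138 FPKM. The part of these cells in its position was not tested. Without replicate 5, limma called 36 genes higher (0.334% of 10774) and 45 lower (0.418%), and leaving out the library nearest to the other group widens such differences by construction. The groups were then apart for 109 genes higher (1.01%) and 561 lower (5.21%), and an unadjusted p under 0.05 was reached by 219 higher (2.03%) and 1263 lower (11.7%). Of these 81 calls 33 were sex-biased or Mup genes, among them 14 of 30 male-biased genes higher, 7 of 17 female-biased genes lower and 15 of 19 Mup genes higher; Mup genes of the male-biased list are counted under both. Serpina1e, Hsd3b5 and Mup9 then had adjusted p-values of 0.0103, 0.0103 and 0.0103.

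**Figure D3:**
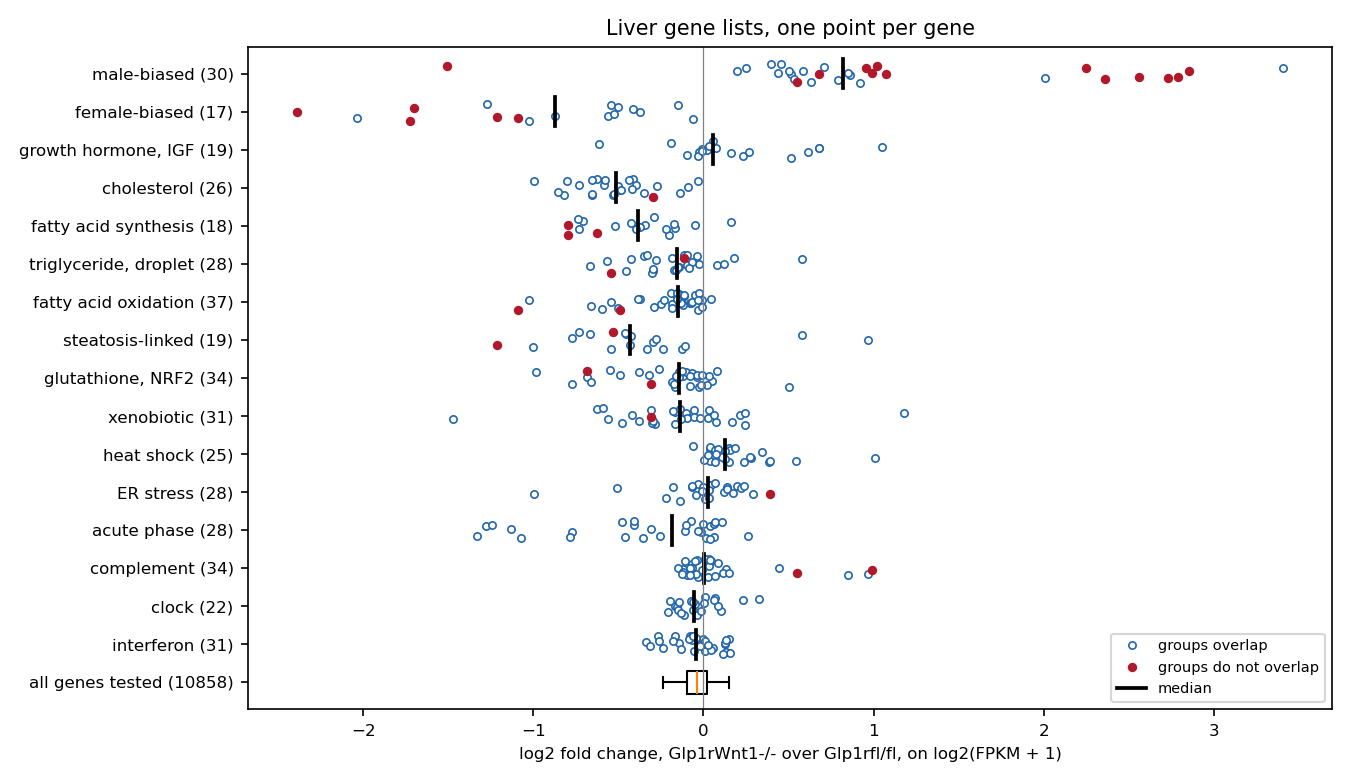
Log2 fold change, Glp1rWnt1-/- over Glp1rfl/fl, of every tested gene of 16 lists, with the number of genes in brackets, the list median as a black bar and genes whose groups do not overlap as filled points. The box gives the quartiles and the 5th and 95th percentiles of all 10858 genes, around a median of -0.038; the male-biased list lies to its right (median 0.82) and the female-biased list to its left (median -0.87).

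Cholesterol genes were lower as a group, though none passed the test. All 26 listed genes of synthesis and uptake were tested and all 26 were negative, where 33% of all genes tested were positive. Their median log2 fold change was -0.52. An unadjusted p under 0.05 was reached by 17, beside 7.44% of all genes tested on the low side. Under the other scalings that count of 17 ran from 13 to 20. For 1 of 26 (3.85%) the groups did not overlap, beside 1.72% of all genes tested. With median-of-ratios or quantile scaling 1 of 26 became positive. The transcription factor gene Srebf2 was the one with separate groups, at 6.94, 8.59, 6.96, 7.79 and 7.84 FPKM in Glp1rWnt1-/- livers, against 9.95, 11.2, 8.66, 9.16 and 9.08 FPKM in Glp1rfl/fl livers (log2 fold change -0.30 ± 0.094, adjusted p = 0.296). Sc5d, the sterol-C5-desaturase near the end of the pathway, was at 106, 187, 129.9, 138 and 153 FPKM in Glp1rWnt1-/- livers, against 205, 244, 188, 181 and 201 FPKM in Glp1rfl/fl livers (log2 fold change -0.53 ± 0.15, adjusted p = 0.252). Knockout replicate 2 overlapped the floxed livers there. Hmgcs1, the cytosolic HMG-CoA synthase at its start, was at 38.2, 87.1, 41.9, 43.0 and 61.4 FPKM in Glp1rWnt1-/- livers, against 113, 114, 70.0, 85.4 and 85.4 FPKM in Glp1rfl/fl livers (log2 fold change -0.82 ± 0.31, adjusted p = 0.382). Again knockout replicate 2 reached into the floxed range, and the other knockout livers lay below it. Sqle, squalene epoxidase, averaged 9.28 ± 7.04 FPKM in Glp1rWnt1-/- livers and 16.8 ± 6.41 FPKM in Glp1rfl/fl livers (SD, n = 5 each), and its groups overlapped. By library the median deviation over the list was -1.03, 0.060, -0.75, -0.60 and -0.26 in Glp1rWnt1-/- livers, against 0.16, 0.22, -0.18, 0.0044 and -0.14 in Glp1rfl/fl livers, so replicate 2 of the knockout lay with the floxed livers. No member was called without replicate 5.

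The sterol response element core CACCCCAC was present, on either strand within 250 bases upstream of the start, in 2 of 18 cholesterol promoters (11.1%, Hmgcs1 and Acat2) and in 209 of 8435 promoters of genes tested (2.48%). The Hmgcs1 window, from -166 to -99 on the plus strand of GRCm38.p6, is shown because the gene is a textbook target of SREBP2, with the element in capitals.
Hmgcs1, chr13:119690185-119690252: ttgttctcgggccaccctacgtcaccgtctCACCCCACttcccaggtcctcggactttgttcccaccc

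**Figure D4:**
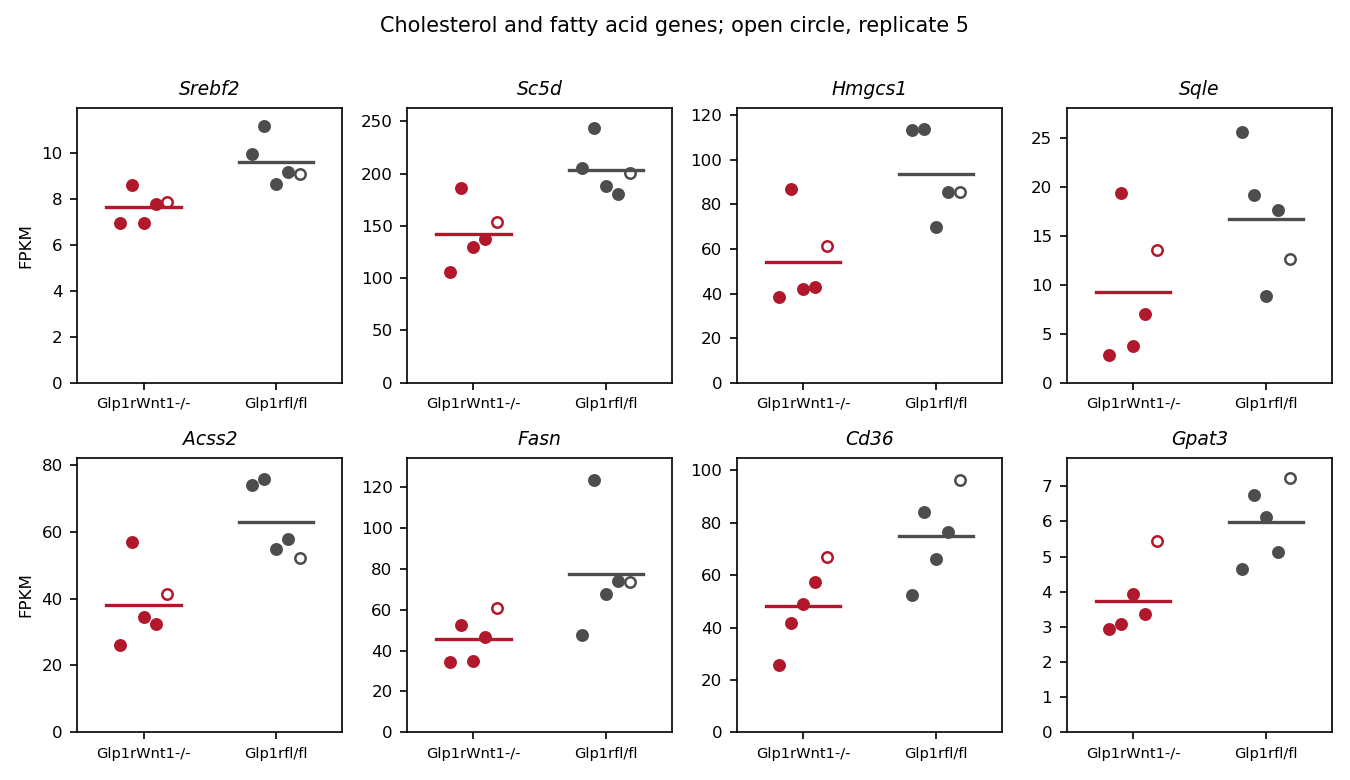
FPKM on a linear axis of cholesterol and fatty acid genes in 5 Glp1rWnt1-/- livers (left in each panel) and 5 Glp1rfl/fl livers (right), 1 point per library, the group mean as a line and replicate 5 as an open circle. Srebf2 values are apart, at 6.94 to 8.59 FPKM in the knockout and 8.66 to 11.2 FPKM in floxed livers, whereas those of Hmgcs1, Fasn and Cd36 overlap.

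Fatty acid synthesis genes showed a similar lean. Of 18 tested genes 17 were negative and 10 were lower at an unadjusted p under 0.05, beside 7.44% of all genes tested. Under the other scalings that count of 10 ran from 6 to 12. The groups did not overlap for 3 of 18 (16.7%), namely Scd1, Elovl5 and Me1, all on the low side, beside 1.72% of all genes tested. Elovl5, which elongates polyunsaturated fatty acids, was at 204, 273, 316, 234 and 318 FPKM in Glp1rWnt1-/- livers, against 381, 493, 420.5, 359.6 and 404 FPKM in Glp1rfl/fl livers (log2 fold change -0.62 ± 0.25, adjusted p = 0.429). Scd1, the stearoyl-CoA desaturase, was at 1347, 1439, 1109, 905 and 1413 FPKM in Glp1rWnt1-/- livers, against 1798, 3167, 2912, 1507 and 1745 FPKM in Glp1rfl/fl livers (log2 fold change -0.80 ± 0.39, adjusted p = 0.545). The floxed livers varied widely for Scd1, and the gap to the highest knockout liver was narrow. Acss2, the cytosolic acetyl-CoA synthetase, was at 26.2, 56.8, 34.4, 32.3 and 41.5 FPKM in Glp1rWnt1-/- livers, against 74.0, 75.7, 54.8, 57.7 and 52.2 FPKM in Glp1rfl/fl livers (log2 fold change -0.73 ± 0.22, adjusted p = 0.272). Fasn, the fatty acid synthase, averaged 45.8 ± 11.4 FPKM in Glp1rWnt1-/- livers and 77.2 ± 27.9 FPKM in Glp1rfl/fl livers (SD, n = 5 each, log2 fold change -0.71 ± 0.26, adjusted p = 0.381). Srebf1, the regulator of these enzymes, averaged 51.6 ± 4.47 FPKM in Glp1rWnt1-/- livers and 58.9 ± 10.5 FPKM in Glp1rfl/fl livers (SD, n = 5 each). Markers of adipocytes, which share some of these genes, summed to 6.60 to 57.6 FPKM in Glp1rWnt1-/- livers and 13.2 to 29.7 FPKM in Glp1rfl/fl livers, with Lep at 0 in every library of both groups; their part was not tested.

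Triglyceride and droplet genes were closer to the background, with 24 of 28 negative and a median log2 fold change of -0.15. Of all genes tested 33% were positive, and their median was -0.038. Groups were separate for 2 of 28 (7.14%), Gpam and Dgat2, both lower, beside 1.72% of all genes tested. Gpat3, a glycerol-3-phosphate acyltransferase, was at 2.93, 3.07, 3.93, 3.36 and 5.43 FPKM in Glp1rWnt1-/- livers, against 4.65, 6.76, 6.11, 5.12 and 7.22 FPKM in Glp1rfl/fl livers (log2 fold change -0.57 ± 0.13, adjusted p = 0.14). Knockout replicate 5 alone reached into the floxed range. Cd36, the fatty acid uptake receptor that rises in steatotic liver, was at 25.9, 41.7, 49.2, 57.3 and 66.9 FPKM in Glp1rWnt1-/- livers, against 52.5, 84.0, 66.2, 76.5 and 96.3 FPKM in Glp1rfl/fl livers (log2 fold change -0.67 ± 0.21, adjusted p = 0.291). Gpam, the mitochondrial isoform of the acyltransferase, was at 28.7, 44.7, 38.8, 39.5 and 39.6 FPKM in Glp1rWnt1-/- livers, against 47.4, 85.5, 53.2, 47.4 and 52.6 FPKM in Glp1rfl/fl livers (log2 fold change -0.55 ± 0.18, adjusted p = 0.345). Among 19 genes commonly high in steatotic mouse liver, 2 (10.5%), Vldlr and Cyp17a1, had separate groups, both lower, beside 1.72% of all genes tested. Of the 19 genes 17 were negative, with a median of -0.43. By library their median deviation was -1.43, -0.64, -0.26, 0.19 and 0.13 in Glp1rWnt1-/- livers, against -0.48, 0.0097, -0.020, 0.029 and 0.34 in Glp1rfl/fl livers, so knockout replicates 3, 4 and 5 lay within the floxed range. Vldlr, the VLDL receptor, was at 0.383, 0.613, 0.995, 0.611 and 1.21 FPKM in Glp1rWnt1-/- livers, against 1.24, 1.38, 1.48, 1.58 and 1.92 FPKM in Glp1rfl/fl livers (log2 fold change -0.53 ± 0.14, adjusted p = 0.187). Plin2, the main coat protein of hepatic droplets, averaged 286 ± 65.5 FPKM in Glp1rWnt1-/- livers and 358 ± 45.1 FPKM in Glp1rfl/fl livers (SD, n = 5 each, log2 fold change -0.35 ± 0.20, adjusted p = 0.607).

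Of 37 genes for oxidizing fatty acids or making ketone bodies, 36 were negative, but the list followed the scaling: 6 were positive with median-of-ratios and 10 with the common sum that leaves out the Mup genes. Its median was -0.15, beside -0.038 over all genes tested, of which 33% were positive. Groups were separate for 2 of 37 (5.41%), Cyp4a14 and Crat, both lower, beside 1.72% of all genes tested. Crat, carnitine acetyltransferase, was at 11.5, 16.05, 16.3, 14.4 and 19.5 FPKM in Glp1rWnt1-/- livers, against 19.6, 24.1, 20.4, 21.2 and 25.4 FPKM in Glp1rfl/fl livers (log2 fold change -0.49 ± 0.15, adjusted p = 0.279). Pdk4, the kinase that shuts pyruvate dehydrogenase off, was at 0.715, 1.68, 1.59, 1.37 and 2.26 FPKM in Glp1rWnt1-/- livers, against 2.55, 3.44, 1.99, 2.61 and 4.30 FPKM in Glp1rfl/fl livers (log2 fold change -0.66 ± 0.17, adjusted p = 0.197). Ehhadh, a bifunctional enzyme of peroxisomal oxidation, was at 79.98, 87.0, 87.6, 80.7 and 96.9 FPKM in Glp1rWnt1-/- livers, against 92.6, 144, 108, 109.6 and 112 FPKM in Glp1rfl/fl livers (log2 fold change -0.37 ± 0.11, adjusted p = 0.272). Cpt1a, the rate-limiting gate of mitochondrial oxidation, averaged 123 ± 12.2 FPKM in Glp1rWnt1-/- livers and 135 ± 8.48 FPKM in Glp1rfl/fl livers (SD, n = 5 each), a difference smaller than the range of either group. Ppif, cyclophilin D of the mitochondrial permeability pore, was at 19.3, 22.5, 20.8, 22.3 and 25.2 FPKM in Glp1rWnt1-/- livers, against 28.2, 31.9, 27.9, 29.3 and 31.8 FPKM in Glp1rfl/fl livers (log2 fold change -0.42 ± 0.068, adjusted p = 0.0812). It had the smallest unadjusted p of the genes the rule took. Its highest knockout value was below its lowest floxed value although the means differed by a ratio of only 1.35, floxed over knockout. Dlat, a core subunit of pyruvate dehydrogenase, was at 9.15, 11.3, 11.5, 9.93 and 12.8 FPKM in Glp1rWnt1-/- livers, against 13.2, 15.7, 14.7, 14.6 and 16.1 FPKM in Glp1rfl/fl livers, with the groups apart (log2 fold change -0.42 ± 0.093, adjusted p = 0.14).

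Heat shock chaperones were mostly slightly higher, and none passed the test. Of 25 tested genes 24 were positive, beside 33% of all genes tested, and the median log2 fold change was 0.13. On the high side 5 had an unadjusted p under 0.05, beside 2.21% of all genes tested, and 0 had groups that did not overlap. With a common FPKM sum 19 were positive and 5 had such a p. That count was 11 with median-of-ratios scaling, 11 with quantile normalization and 12 with a common sum without Mup genes. These 3 scalings also raised the count over all genes tested. Hspa1b, an inducible HSP70, was at 1.63, 7.84, 10.3, 10.5 and 7.16 FPKM in Glp1rWnt1-/- livers, against 1.79, 2.63, 1.84, 4.39 and 3.87 FPKM in Glp1rfl/fl livers (log2 fold change 1.01 ± 0.36, adjusted p = 0.358). Knockout replicate 1 was the lowest of all 10 libraries, and the other knockout livers were above every floxed liver. Hsph1, the HSP110 exchange factor, was at 12.2, 19.0, 20.8, 21.6 and 16.9 FPKM in Glp1rWnt1-/- livers, against 8.91, 12.2, 11.95, 15.4 and 11.9 FPKM in Glp1rfl/fl livers (log2 fold change 0.54 ± 0.18, adjusted p = 0.345). Dnajb1, an HSP40 co-chaperone, was at 5.68, 9.36, 10.7, 8.69 and 7.82 FPKM in Glp1rWnt1-/- livers, against 4.85, 6.28, 5.34, 7.39 and 6.91 FPKM in Glp1rfl/fl livers (log2 fold change 0.39 ± 0.14, adjusted p = 0.347), with the same knockout liver lowest in its group. Among endoplasmic reticulum stress genes, Xbp1, a transcription factor of the unfolded protein response, was at 92.0, 83.7, 80.8, 128 and 79.8 FPKM in Glp1rWnt1-/- livers, against 70.2, 62.5, 74.1, 73.1 and 68.5 FPKM in Glp1rfl/fl livers with no overlap (log2 fold change 0.39 ± 0.10, adjusted p = 0.197). That list had a median log2 fold change of 0.026 over 28 genes. Trib3, a pseudokinase downstream of ATF4 and CHOP, was at 3.10, 3.02, 4.79, 2.88 and 3.24 FPKM in Glp1rWnt1-/- livers, against 4.86, 7.33, 4.52, 4.88 and 4.77 FPKM in Glp1rfl/fl livers (log2 fold change -0.51 ± 0.17, adjusted p = 0.345).

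Genes of detoxification were mixed. Of 34 glutathione and NRF2 genes 29 were negative with a median of -0.14, and between 2 and 13 were positive as the scaling changed. Nqo1, a quinone reductase and standard NRF2 target, was at 3.88, 3.95, 3.49, 4.80 and 6.97 FPKM in Glp1rWnt1-/- livers, against 5.47, 9.42, 6.81, 6.81 and 11.03 FPKM in Glp1rfl/fl livers (log2 fold change -0.66 ± 0.17, adjusted p = 0.197). Gstt3, a theta-class glutathione transferase, was at 32.2, 22.6, 23.4, 14.3 and 25 FPKM in Glp1rWnt1-/- livers, against 42.0, 36.1, 35.3, 39.3 and 34.2 FPKM in Glp1rfl/fl livers with separate groups (log2 fold change -0.69 ± 0.19, adjusted p = 0.207). Gstp1, a pi-class transferase that is higher in male mouse liver, was at 733, 784, 752, 1035 and 718 FPKM in Glp1rWnt1-/- livers, against 511, 747, 515, 550.3 and 521 FPKM in Glp1rfl/fl livers (log2 fold change 0.50 ± 0.13, adjusted p = 0.205). Floxed replicate 2 stood within the knockout range there. Nr1i2, the gene of the xenobiotic receptor PXR, was at 32.7, 30.5, 33.3, 25.7 and 30.7 FPKM in Glp1rWnt1-/- livers, against 37.1, 41.5, 36.3, 41.2 and 34.5 FPKM in Glp1rfl/fl livers with separate groups (log2 fold change -0.31 ± 0.088, adjusted p = 0.248). It was the 1 such gene of 31 in the xenobiotic list (3.23%), beside 1.72% of all genes tested on the low side. In that list 7 genes were lower and 1 higher at an unadjusted p under 0.05. Cyp2c68, a P450 of the Cyp2c family, was at 72.8, 57.7, 57.9, 44.4 and 70.8 FPKM in Glp1rWnt1-/- livers, against 88.3, 86.9, 83.3, 86.9 and 94.2 FPKM in Glp1rfl/fl livers, also with no overlap (log2 fold change -0.55 ± 0.11, adjusted p = 0.0812). Cyp3a11, a target of PXR, averaged 259 ± 78.0 FPKM in Glp1rWnt1-/- livers and 377 ± 35.1 FPKM in Glp1rfl/fl livers (SD, n = 5 each, log2 fold change -0.59 ± 0.23, adjusted p = 0.406). In the bile acid list of 26 genes, 13 were negative and 13 positive. Only Cyp7b1 had separate groups there (3.85%, on the high side, beside 0.635% of all genes tested). Slco1a4, an uptake carrier, was at 7.71, 7.02, 9.13, 5.44 and 13.8 FPKM in Glp1rWnt1-/- livers, against 12.1, 18.5, 13.3, 19.8 and 21.0 FPKM in Glp1rfl/fl livers (log2 fold change -0.93 ± 0.31, adjusted p = 0.341).

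Of 18 tested genes of hepatokines and metabolic stress 7 were positive, with a median log2 fold change of -0.054. At an unadjusted p under 0.05, 5 were lower and 0 higher, beside 7.44% and 2.21% of all genes tested. Those lower ran from 2 to 5 under the other scalings. The groups did not overlap for 1 of 18 (5.56%), on the low side, beside 1.72% of all genes tested. Hamp2, a hepcidin paralog, was at 57.3, 26.0, 15.2, 5.39 and 34.1 FPKM in Glp1rWnt1-/- livers, against 245, 71.5, 65.8, 115 and 82.3 FPKM in Glp1rfl/fl livers with separate groups (log2 fold change -2.20 ± 0.69, adjusted p = 0.289). Hamp, hepcidin itself, was at 943, 618, 579, 325 and 467 FPKM in Glp1rWnt1-/- livers, against 752, 167, 675, 269 and 107 FPKM in Glp1rfl/fl livers (log2 fold change 0.87 ± 0.49, adjusted p = 0.598). Reads can be split between these paralogs, which limits both values. Gdf15, a stress hormone that curbs appetite, was at 1.75, 7.71, 3.60, 8.75 and 12 FPKM in Glp1rWnt1-/- livers, against 9.70, 19.2, 10.1, 10.1 and 15.5 FPKM in Glp1rfl/fl livers (log2 fold change -0.995 ± 0.35, adjusted p = 0.358). Fgf21, a fasting and stress hormone, averaged 6.02 ± 2.35 FPKM in Glp1rWnt1-/- livers and 7.97 ± 1.88 FPKM in Glp1rfl/fl livers (SD, n = 5 each, log2 fold change -0.39 ± 0.25, adjusted p = 0.668). Alas2, the erythroid enzyme that opens heme synthesis, was at 52.5, 44.5, 61.3, 55.0 and 48.9 FPKM in Glp1rWnt1-/- livers, against 32.3, 41.2, 36.7, 40.8 and 33.0 FPKM in Glp1rfl/fl livers with separate groups (log2 fold change 0.50 ± 0.10, adjusted p = 0.0812). The summed erythrocyte markers overlapped, at 639 to 3137 FPKM in Glp1rWnt1-/- livers and 1016 to 1523 FPKM in Glp1rfl/fl livers. Vnn3, a pantetheinase, was at 27.1, 34.1, 32.1, 27.2 and 37.1 FPKM in Glp1rWnt1-/- livers, against 39.0, 46.7, 38.1, 45.7 and 43.5 FPKM in Glp1rfl/fl livers, with every knockout liver below (log2 fold change -0.43 ± 0.087, adjusted p = 0.0925). Interferon-stimulated genes (31 tested) and clock genes (22 tested) had 0 members with separate groups and 0 with an unadjusted p under 0.05.

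Markers of other cell types overlapped between the groups in sum. Of T and NK cell markers, knockout replicates 4 and 5 held 7.34 and 5.27 FPKM, where the other knockout livers held 1.66 to 2.26 and floxed livers 1.65 to 2.20 FPKM. Adipocyte markers summed to 6.60, 46.3, 57.6, 47.2 and 23.3 FPKM in Glp1rWnt1-/- livers, against 15.6, 13.2, 29.7, 17.5 and 16.2 FPKM in Glp1rfl/fl livers, so knockout replicates 2, 3 and 4 exceeded every floxed liver. All 10 Kupffer cell markers, 7 lipid-associated macrophage markers and 13 stellate cell and matrix markers tested were negative, with medians of -0.14, -0.28 and -0.14 and with no groups apart. Summed Kupffer markers ran from 70.6 to 184 FPKM in Glp1rWnt1-/- livers and from 68.8 to 215 FPKM in Glp1rfl/fl livers. Lipid-associated macrophage markers ran from 25.6 to 91.7 FPKM in the knockout and from 58.3 to 119 FPKM in floxed livers, and stellate markers from 75.1 to 181 FPKM in the knockout and from 107 to 171 FPKM in floxed livers. Knockout replicate 1 held the lowest sum of lipid-associated macrophage and of stellate markers among the 10 libraries. Neuron and Schwann cell markers stayed at or below 2.28 FPKM in sum in all 10 libraries, with Th and Elavl4 at 0 throughout.

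The treated livers of the same line were measured too, and both contrasts share the floxed vehicle libraries, so their values are set side by side without a test of likeness. In conjugate-treated Glp1rfl/fl livers against vehicle, limma called 1126 genes (10.4%). Log2 fold changes there were 2.53 for Serpina1e and 3.57 for Hsd3b5, both called, beside 2.73 and 3.40 in the untreated knockout. Other male-biased genes were not called and lay nearer to 0 with the conjugate. Cyp4a12b had 0.35 (adjusted p = 0.574) beside 2.25, Selenbp2 0.83 (adjusted p = 0.413) beside 2.56, and Mup21 0.39 (adjusted p = 0.262) beside 0.95. Cyp17a1 had -1.58, called, beside -1.22. Cholesterol genes lay further from 0 with the conjugate: Hmgcs1 -1.42 beside -0.82 and Dhcr7 -1.13 beside -0.66. Cyp4a14 had -0.043 (adjusted p = 0.932) beside -1.09, and Cyp2b9 -0.65 (adjusted p = 0.457) beside -2.39. The Mup share in the conjugate-treated livers ran from 4.62 to 14.5% with a median of 7.63%, so 3 of 5 treated livers lay within the range of the knockout livers and the rest within that of the floxed vehicle livers. Estimated depth there was lower, at 31.7 to 35.5 M fragments.

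The other untreated knockout, GiprSyn-/-, offered a contrast with no shared library. It called 161 genes higher (1.44%) and 999 lower (8.92%) of 11201. Serpina1e was at 4788, 4949, 3637, 3569 and 3138 FPKM in GiprSyn-/- livers, against 366, 274, 68.1, 143 and 188 FPKM in Giprfl/fl livers. Its log2 fold change was 4.46 ± 0.52 there, beside 2.73 ± 0.47 in the Wnt1 knockout. The difference of both effects was not called (adjusted p = 0.369), nor was that of Hsd3b5 (adjusted p = 0.67), Mup9 (adjusted p = 0.738) or Cyp2b9 (adjusted p = 0.925), and such p-values do not show that the effects were equal. For other sex-biased genes the difference was called, among them Cyp17a1 (adjusted p = 0.0255), Cyp7b1 (adjusted p = 0.0132) and Cyp4a14 (adjusted p = 3.6e-05). Tables of the 2 lines were normalized separately, which bears on every difference between them. The difference itself was called for 62 genes on the positive side (0.543% of 11419) and 13 on the negative side (0.114%). That split depended on the scaling: it was 27 and 17 with median-of-ratios scaling, 18 and 12 with quantile normalization, and 79 and 12 with a common FPKM sum.

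On the positive side, lipid enzymes were among the genes with the smallest p. Cyp4a14 was at 2.38, 2.88, 5.43, 11.9 and 1.32 FPKM in GiprSyn-/- livers, against 175, 177, 192, 198 and 303 FPKM in Giprfl/fl livers. Its log2 fold change was -5.42 ± 0.43 there, where the Wnt1 knockout had -1.09 ± 0.26. The difference was 4.33 ± 0.52, adjusted p = 3.6e-05, and it was called under all 29 alternatives. Cyp4a10, its neighbour with the same activity, was at 17.5, 25.2, 31.6, 37.4 and 8.28 FPKM in GiprSyn-/- livers, against 138, 146, 119.7, 219 and 240.0 FPKM in Giprfl/fl livers (difference 2.397 ± 0.40, adjusted p = 0.00238). The knockout and floxed livers of the Glp1r line held 178, 167, 179.8, 91.8 and 201 FPKM and 235, 239, 258, 249 and 159.9 FPKM, with overlap. The differences for the P450 Cyp2c38, Crat and Elovl5 were 2.02 ± 0.28, adjusted p = 0.000341, then 1.43 ± 0.21, adjusted p = 0.000569, and 1.85 ± 0.36, adjusted p = 0.011, each called under all 29 alternatives. Cd36 and Bag3 had differences of 1.33 ± 0.32, adjusted p = 0.0479 and 0.71 ± 0.17, adjusted p = 0.0445, called under 13 and 10 of 29.

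On the negative side stood genes that were higher in the Syn knockout by more than in the Wnt1 knockout. Cyp7b1 was at 127, 126, 102, 132 and 102 FPKM in GiprSyn-/- livers, against 29.9, 24.9, 7.24, 17.6 and 27.2 FPKM in Giprfl/fl livers, while the Glp1r line stayed between 27.0 and 62.3 FPKM (difference -1.86 ± 0.37, adjusted p = 0.0132). Lifr, the receptor of leukemia inhibitory factor, was at 81.3, 111, 77.6, 88.3 and 88.0 FPKM in GiprSyn-/- livers, against 21.7, 24.5, 14.9, 19.5 and 27.8 FPKM in Giprfl/fl livers (difference -1.57 ± 0.28, adjusted p = 0.00613). Ugt2b38, a glucuronosyltransferase, was at 22.7, 39.5, 22.1, 23.7 and 26.0 FPKM in GiprSyn-/- livers, against 0.589, 0.156, 1.01, 0.480 and 0.409 FPKM in Giprfl/fl livers. In the Glp1r line its means were 1.44 FPKM in the Wnt1 knockout and 0.282 FPKM in floxed livers, under the level for testing there. Cyp2a22 carries a limit. The Gipr line hardly expressed it, at 0.0248, 0.0133, 0.0149, 0.0176 and 0.0113 FPKM in GiprSyn-/- livers and 0, 0, 0.0156, 0.0232 and 0.0446 FPKM in Giprfl/fl livers. Its called difference (adjusted p = 0.0247) thus rests on the Glp1r line alone.

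**Figure D5:**
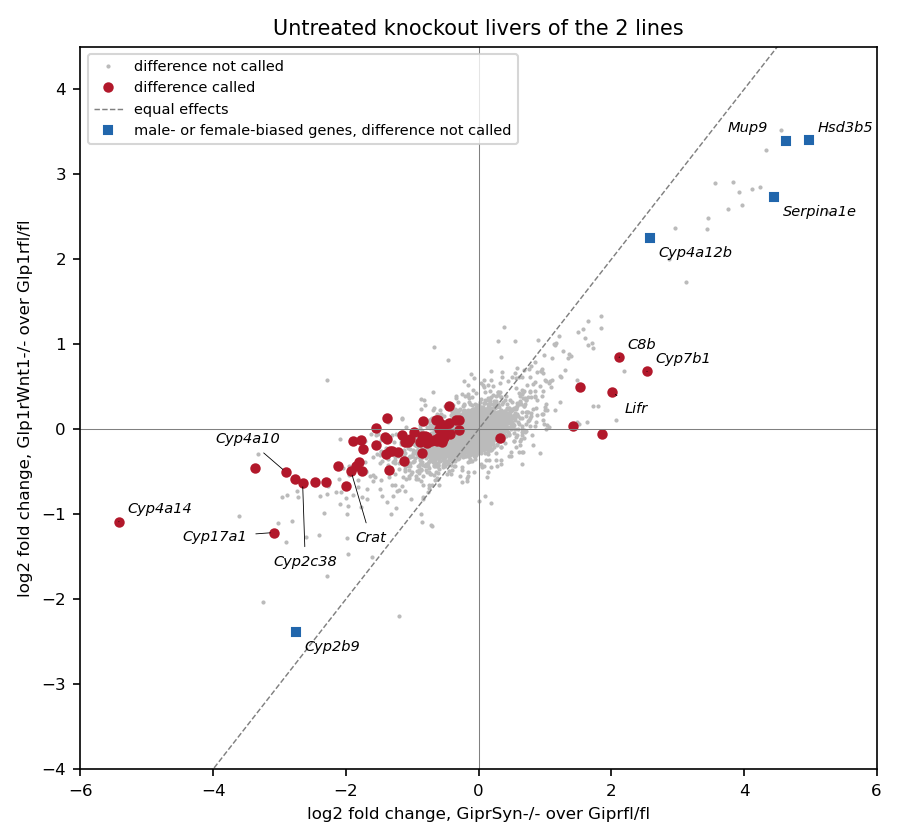
Log2 fold change of each gene tested in both lines, with Glp1rWnt1-/- over Glp1rfl/fl on the vertical axis and GiprSyn-/- over Giprfl/fl on the horizontal axis, and the line of equal effects dashed. Red points are genes whose difference was called, such as Cyp4a14 (-1.09 against -5.42), and include sex-biased genes such as Cyp17a1 and Cyp7b1. Blue squares mark only some chosen sex-biased genes whose difference was not called: Serpina1e (2.73 against 4.46), Hsd3b5, Mup9, Cyp2b9 and Cyp4a12b.

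In inguinal white adipose tissue of the same genotypes, limma called 0 of 12686 genes (0%). Of the liver genes named above, those with an unadjusted p under 0.05 in fat were Pdk4, at 0.66 on the log2 scale and so opposite in sign to liver, Xbp1 (0.27), Sqle (-0.29), Gpam (-0.28) and Vldlr (-0.43). Others in fat were -0.46 for C6, which was positive in liver, -0.12 for Ppif, -0.23 for Hmgcs1, -0.17 for Fasn, 0.015 for Cd36 and 0.14 for Hspa1b, all with adjusted p-values of 0.983 or more in that tissue. The labels do not say whether the libraries of both tissues came from the same mice.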

How the data were processed

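Liver RNA of DIO mice was sequenced as stranded poly(A) libraries on a NovaSeq X, per the labels' protocols. The deposited values are FPKM, computed by the authors with RSEM per the submitters' processing notes; no source used here names its version, an aligner, a build or an annotation. Depth was estimated from single-transcript genes of 1500 to 6000 bases, as the library size at which their lowest values equal 1 fragment. It is an estimate, so no counting interval is given.

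The members and gene lists were chosen with earlier results of these data known. Values were analysed as log2(FPKM + 1) with limma 3.58.1 in R 4.3.3, in a model of the 3 groups of the table with a mean-variance trend, two-sided and Benjamini-Hochberg adjusted over all genes tested at 0.05. Fold changes are on that scale, which damps those of low genes. The difference between the knockouts was an interaction contrast over 30 livers. Library measures were compared by exact permutation over 252 assignments (smallest p 0.00794) in Python 3.11.15. The fit was tested on simulated data.

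Named genes were the 15 higher and 15 lower with the smallest p at a mean of at least 5 FPKM, 4 per list, and 5 per direction of the difference. Genes outside this rule are named as such in the text, and Nox4, Keg1, Me1, Dgat2 and Acat2 also stand outside it. Results for a few single genes are left out. Of the symbols, 91.1% were found in the reference gene names. Promoters are RefSeq's, and build GRCm38.p6 is theirs. Alternatives were other pseudocounts, filters, scalings, weights and fits, a replicate block, and each library left out.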

Additional observations from a re-analysis of the deposited data

Results flagged for a closer look

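Single libraries that lay far from the rest of their group were looked for in 260 groups of 5 values, where chance alone gives about 1 in 20, and 21 were found. That rate holds for independent groups, whereas most of these genes were chosen from these data and Mup copies share fragments. The number found can therefore not be judged against it. Of these 14 were in Glp1rWnt1-/- livers, 10 of them in replicate 5, and 7 in Glp1rfl/fl livers. Replicate 5 of the knockout was far below its group at 2612 FPKM for Mup11, 206 FPKM for Mup1, 2749 FPKM for Mup7, 13.4 FPKM for Mup13, 2656 FPKM for Mup19, 6111 FPKM for Mup3, 488 FPKM for Mup15, 95.5 FPKM for Mup12 and 27.0 FPKM for Slco1a1. It was far above its group at 9.23 FPKM for Cyp2a4. Knockout replicate 4 was apart at 1035 FPKM for Gstp1 and 91.8 FPKM for Cyp4a10, knockout replicate 1 at 1.63 FPKM for Hspa1b and knockout replicate 3 at 4.79 FPKM for Trib3. Floxed replicate 2 was above its group at 747 FPKM for Gstp1, 130.1 FPKM for Insig1, 95.5 FPKM for Acly, 85.5 FPKM for Gpam and 7.33 FPKM for Trib3. Floxed replicate 5 was below its group at 492 FPKM for Mup7 and 159.9 FPKM for Cyp4a10.

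The effect of the Wnt1 knockout differed from that of the Syn knockout, by the interaction test in limma, for 15 of the genes followed here. All of these were tested in the Glp1r line, which leaves out Ugt2b38. Over all 11419 genes the difference was called for 0.543% on the positive and 0.114% on the negative side. Some of the followed genes were taken by their p for this same difference, so their count cannot be judged against these shares. Higher values in the Wnt1 contrast, as differences on the log2 scale, were 4.33 for Cyp4a14, 2.397 for Cyp4a10, 2.02 for Cyp2c38, 1.86 for Cyp17a1, 1.85 for Elovl5, 1.43 for Crat, 1.41 for Acss3, 1.33 for Cd36, 0.88 for Cyp2c39 and 0.71 for Bag3. Lower values were -1.86 for Cyp7b1, -1.70 for Cyp2a22, -1.57 for Lifr, -1.27 for C8b and -1.03 for Gstp1. Under the 29 alternatives the difference was called 13 times for Gstp1, 21 for C8b, 22 for Cyp17a1, 27 for Cyp2a22 and 28 for Acss3, and for Cyp2c39 in 27 of the 28 in which it was tested.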

How the results depend on the processing

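All 124 genes whose values were followed kept the sign of their log2 fold change under every alternative in which they were tested, and 46 of them were called under at least 1 alternative, 44 without knockout replicate 5. Most were chosen by p-value or after their values were seen, and the alternatives refit the same libraries. A kept sign was therefore likely beforehand. The count of genes called, 0 by limma with 1048 at an unadjusted p under 0.05, became 2 with median-of-ratios scaling, 2 with quantile normalization and 52 with array weights, and ran from 0 to 81 when each library was left out, 81 being the count without knockout replicate 5. The count of called differences between the knockouts, 75, became 42 with no filter on low values, 44 with median-of-ratios scaling, 30 with quantile normalization and 587 with array weights, and ran from 29 to 173 as single libraries were left out. The lowest was without Glp1rWnt1-/- replicate 5 and the highest without Glp1rWnt1-/- replicate 1. The cause was not tested. With the replicate number as a block the counts were 0 and 111. The numbers did not pair the samples throughout: same-numbered livers deviated together with r of 0.42, -0.15, 0.014, -0.093 and 0.38. Of the 5, 2 correlated best with their own number, those numbered 1 and 5, and a factor shared within these pairs was not tested.

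The difference in the number of genes at 1 FPKM or more, -87.6, turned to 16.1 without knockout replicate 1 and was -198 without knockout replicate 5. That in the mitochondrial share, -1.65 percentage points, ran from -2.07 to -1.32, with exact permutation p-values of 0.0635 or 0.0794 in those that no longer passed unadjusted. That in the share of the 10 highest genes, -0.97, ran from -1.57 without floxed replicate 5 to -0.39 without floxed replicate 1 (exact permutation p = 0.0159 for the first). FPKM tables hold no counts, so the precision of low genes is not known.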

Other observations

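Some groups outside the male-biased, lipid and stress lists had single genes with wide values. Mt1, a metal-binding metallothionein, was at 95.4, 33.4, 52.3, 22.5 and 88.4 FPKM in Glp1rWnt1-/- livers, against 224, 114, 83.7, 66.3 and 187 FPKM in Glp1rfl/fl livers. Mt2, its paralog, was at 58.8, 12.5, 23.1, 11.2 and 28.5 FPKM in Glp1rWnt1-/- livers, against 114, 57.7, 35.6, 26.6 and 101 FPKM in Glp1rfl/fl livers. Both had overlapping groups (log2 fold change -1.24 ± 0.47, adjusted p = 0.392 for Mt1, log2 fold change -1.33 ± 0.55, adjusted p = 0.45 for Mt2). Lcn2, an iron-siderophore carrier of the acute phase, was at 20.7, 11.8, 23.8, 37.6 and 47.7 FPKM in Glp1rWnt1-/- livers, against 15.5, 67.5, 20.3, 33.3 and 648 FPKM in Glp1rfl/fl livers. Floxed replicate 5 alone reached 648 FPKM, and the groups overlapped (log2 fold change -1.07 ± 0.76, adjusted p = 0.691). Over 28 acute-phase genes the median log2 fold change was -0.18, with 0 groups apart. Nop16, a factor of ribosome assembly, was at 12.03, 11.5, 12.9, 12.2 and 12.5 FPKM in Glp1rWnt1-/- livers, against 10.98, 10.7, 9.79, 9.58 and 10.6 FPKM in Glp1rfl/fl livers with separate groups (log2 fold change 0.22 ± 0.051, adjusted p = 0.14). The 25 ribosome biogenesis genes had a median of 0.046. Cyp2c54, a P450 of the Cyp2c cluster, was at 83.1, 67.0, 65.1, 34.7 and 34.0 FPKM in Glp1rWnt1-/- livers, against 52.9, 13.04, 36.7, 34.7 and 6.83 FPKM in Glp1rfl/fl livers with overlap (log2 fold change 1.18 ± 0.45, adjusted p = 0.395). Its sign was opposite to that of Cyp2c68 and Cyp2c38 of the same family.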
